A study of Mus musculus with 6 samples.

Results

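The BCL2 family is the set of proteins that decides whether the outer membrane of the mitochondrion stays closed or is opened during apoptosis. The members followed here are the 10 genes Bcl2, Bcl2l1, Mcl1, Bax, Bak1, Bid, Bad, Bcl2l11, Bbc3 and Pmaip1, taken by name from the 25805 genes listed in the deposited tables. All 10 were listed once, and all 10 passed the filter on low values that left 21721 genes. RNA sequencing measured them in mouse kidney after ischaemia-reperfusion injury (IRI), a loss of blood supply followed by its return. The 6 libraries were 3 of genotype WT (wild type) and 3 labelled CXCR2 knockout, and every one of them had the injury, so no uninjured kidney was part of the comparison. The labels give neither strain, age, sex nor time after injury, nor which part of Cxcr2 was deleted or in which cells, and whether every library is a separate animal is not stated. The p-values therefore speak only for the variation among these 6 samples, and that variation may be technical.

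Members of the family fall into 3 kinds. BCL-2, BCL-XL (gene Bcl2l1) and MCL-1 bind and restrain their relatives and so keep cells alive. BAX and BAK (Bak1) form the pores through which cytochrome c leaves the mitochondrion. The BH3-only proteins BID, BAD, BIM (Bcl2l11), PUMA (Bbc3) and NOXA (Pmaip1) are sensors of stress that neutralise the survival proteins or activate BAX and BAK. In the kidney this balance is known to bear on the death of tubule cells after ischaemia, and much of the control lies in cleavage, phosphorylation and protein turnover, which RNA levels do not measure.

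What the proteins share is the BH3 segment, a short helix that fits into a groove of the survival proteins. The coding stretches below show it for 9 of the 10 members, each 27 bases long from the GENCODE M21 transcripts (GRCm38, the assembly of mm10) and found once per protein as a leucine, 3 residues of any kind, then glycine, alanine or serine followed by aspartate. Capitals mark the leucine codon and the final pair of codons of that pattern.
Bcl2 (exon 1, minus strand, chr1:106712575-106712601): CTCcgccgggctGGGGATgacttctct
Bcl2l1 (exon 2, minus strand, chr2:152829697-152829723): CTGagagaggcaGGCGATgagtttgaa
Mcl1 (exon 1, plus strand, chr3:95659436-95659462): CTGcggcgcgtgGGCGACggcgtgcag
Bax (exon 3, minus strand, chr7:45465997-45466023): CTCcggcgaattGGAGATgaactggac
Bak1 (exon 4, minus strand, chr17:27022531-27022557): CTTgctctcatcGGAGATgatattaac
Bid (exon 4, minus strand, chr6:120897289-120897315): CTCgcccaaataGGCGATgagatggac
Bad (exon 3, plus strand, chr19:6950792-6950818): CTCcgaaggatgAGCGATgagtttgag
Bcl2l11 (exon 3, plus strand, chr2:128147150-128147176): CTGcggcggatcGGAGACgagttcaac
Bbc3 (exon 3, plus strand, chr7:16313773-16313799): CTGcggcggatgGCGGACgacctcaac
The glycine codon of the pattern is replaced by a serine codon in Bad and by an alanine codon in Bbc3, both BH3-only genes, and is present in the other 7.

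The libraries held 15518083 to 20356601 reads. Values below are normalized counts, meaning reads divided by 1 size factor per library, and each group has 3 libraries. Cxcr2 itself ran from 15.9 to 88.8 normalized counts in wild type and from 36.8 to 98.0 in the libraries labelled knockout, so the label could not be checked by its RNA, and every direction is one between labels. As a check of the tissue, all 12 proximal tubule markers were above 0 in every library, with a summed level of 226851 to 296713 in wild type and 226547 to 264099 in labelled knockout. Gene by gene they were less alike than their sums. Their median log2 difference, labelled knockout minus wild type, was 0.79, with 9 above and 3 below 0. It was 0.29 without labelled-knockout library 1. Labelled-knockout library 1 stood apart in markers of several cell types. It had the highest value of 7 of 8 fat cell markers, 14 of 17 neutrophil markers and 7 of 8 erythrocyte markers, and also of 9 of 12 proximal tubule markers and 8 of 12 thick limb, distal tubule and collecting duct markers. The summed fat cell markers ran from 929 to 2677 in wild type and from 344 to 40751 in labelled knockout, with Adipoq and Cidea at 0 in wild-type libraries 2 and 3 and in labelled-knockout library 3. The summed neutrophil markers ran from 659 to 2357 and from 758 to 5781, with Ly6g, Ngp and Camp at 0 in wild-type library 1, Ngp and Camp in wild-type library 3, and Mmp8, Camp and Fpr1 in labelled-knockout library 2, and the summed erythrocyte markers from 790 to 3002 and from 798 to 13668. Labelled-knockout library 3 had the lowest value of all 12 endothelial markers, at a sum of 5889 against 13918 to 23517 in wild type, and of 11 of those 12 distal markers, whose sum was 24979 there, 106653 in labelled-knockout library 1 and 51497 to 94010 in wild type. The median log2 difference of the endothelial markers was -0.85, with 1 above and 11 below 0, and -0.43 without labelled-knockout library 3. Macrophage and monocyte markers summed to 5330 to 9318 in wild type and 3973 to 8613 in labelled knockout. Their median log2 difference was -0.43, with 3 above and 9 below 0. It ran from -0.65 without labelled-knockout library 1 to -0.40 without labelled-knockout library 2. T and B lymphocyte markers summed to 38.7 to 86.1 in wild type and 61.7 to 123 in labelled knockout. In whole kidney, fewer cells of a type and less RNA per cell cannot be told apart.

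A change between the groups was detected for no member. None of the 10 passed limma's test at an adjusted p of 0.05, against a background of 0.0046% of all 21721 genes, and none passed with edgeR (0.00628% of genes tested) or DESeq2 (1.95%). At an unadjusted p under 0.05 limma had 1 of 10 members, Bad, where 10.1% of all genes lay under it (6.14% lower and 3.94% higher). Groups did not overlap for 2 members, Mcl1 with higher and Bad with lower values in labelled knockout, against 17.7% of all genes (8.27% higher and 9.43% lower). The median log2 difference of the members was 0.23, with 7 above and 3 below 0, beside -0.0010 over all genes. The members' median was 0.16, 0.31 and 0.12 with labelled-knockout library 1, 2 or 3 left out.

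**Figure D1:**
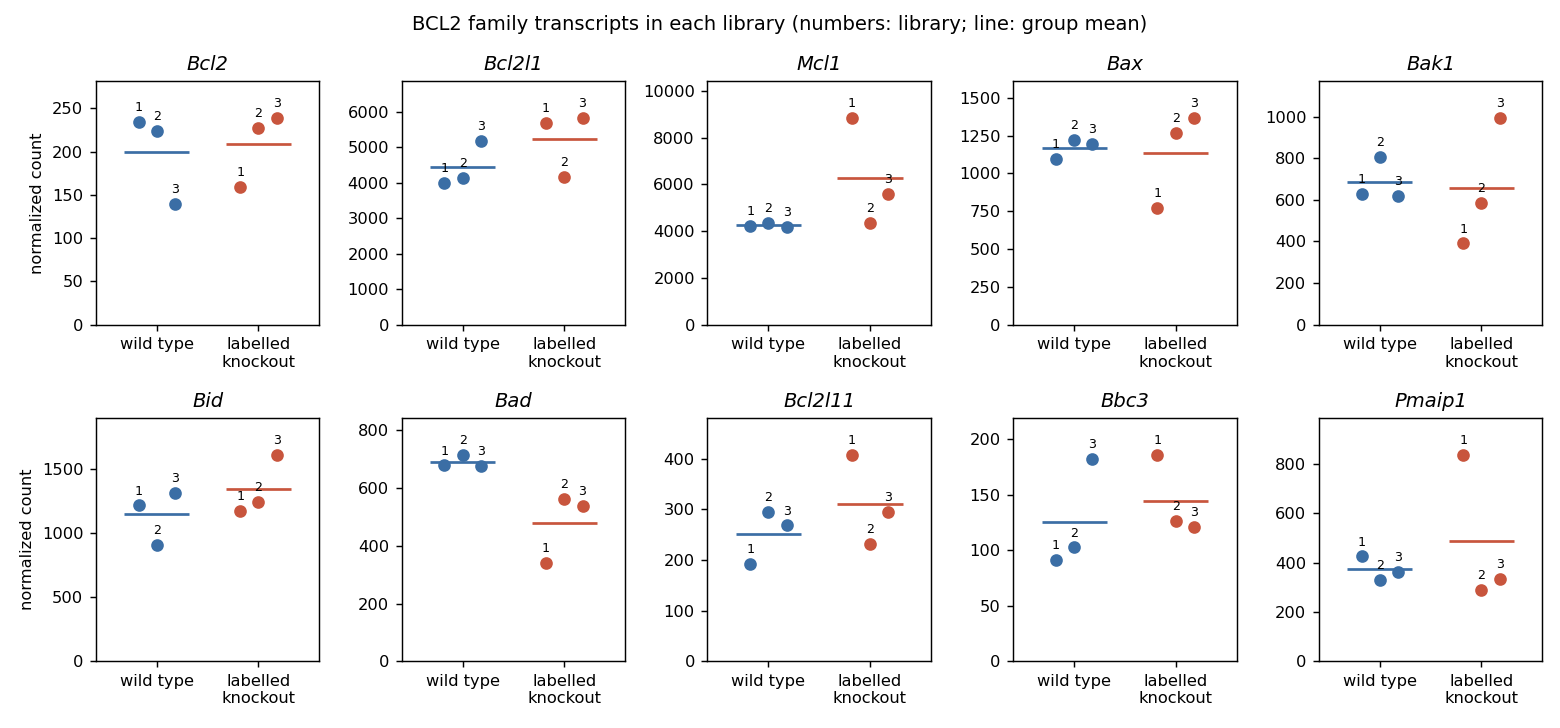
Normalized count (vertical axis, linear from 0) of each member in each library, with wild type in blue and labelled knockout in red, numbers giving the library and lines the group mean of 3. Mcl1 and Bad are the 2 genes whose groups do not overlap, and labelled-knockout library 1 is the outermost point for 7 of the 10.

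Per length of the gene model, the members stood in nearly the same order in both groups. In wild type Mcl1 was highest, at 1244 normalized counts per 1000 bases, followed by Bcl2l1 at 967 and Bax at 742, and the ranges of these neighbours did not overlap. Bad (344), Bid (323) and Bak1 (285) came next and overlapped with their neighbours over the 3 libraries. Pmaip1 (141), Bbc3 (59.0), Bcl2l11 (31.4) and Bcl2 (21.8) were lowest, and the ranges of the last 2 overlapped. Thus the survival transcripts of these injured kidneys were mostly Mcl1 and Bcl2l1, with Bcl2, the founding member of the family, lowest of all 10 per length. In labelled knockout Mcl1 (1832), Bcl2l1 (1138) and Bax (720) were again the first 3 and did not overlap. Bad (239) stood behind Bid (379) and Bak1 (273) there, and the ranges of Bid, Bak1, Bad and Pmaip1 (184) overlapped from each to the next. The length counts every exon of the gene model, so a gene read mainly as a short isoform has a higher level than given.

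**Figure D2:**
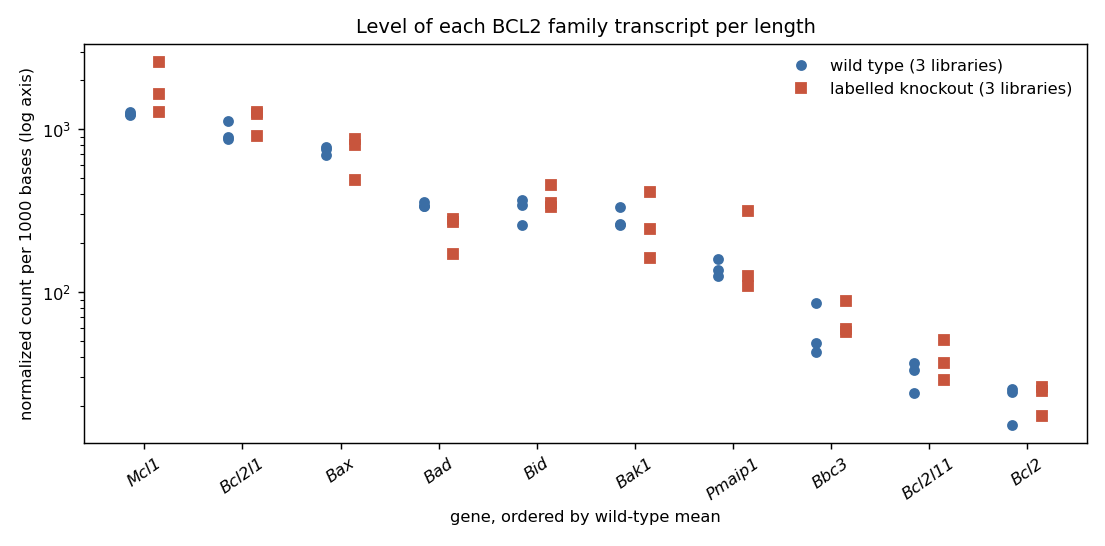
Normalized count per 1000 bases of gene model (vertical log axis) for each member, ordered by the wild-type mean, with circles for the 3 wild-type and squares for the 3 labelled-knockout libraries. Mcl1, Bcl2l1 and Bax lead in both groups, and Bcl2 lies lowest.

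Mcl1 encodes a survival protein with a short life in the cell, so that its level follows its synthesis closely. The gene lies on the plus strand of chromosome 3 from 95658788 to 95663176. Wild-type libraries held 4222, 4339 and 4198 normalized counts, compared with 8828, 4353 and 5609 in labelled-knockout libraries 1, 2 and 3. Wild type varied little, with an SD of 0.026 on the log2 scale against 0.52 in labelled knockout, and labelled-knockout library 2 lay just above the highest wild-type library. The means were 4253 ± 75.6 and 6263 ± 2308 (SD, n = 3 each), a log2 difference, labelled knockout minus wild type on the log2(normalized count + 1) scale, of 0.50 (standard error 0.25, 95% interval -0.07 to 1.06, adjusted p = 0.541 by limma). Leaving out labelled-knockout library 1 gave 0.22, and leaving out library 2 gave 0.73. The fat cell, neutrophil and erythrocyte markers given above were highest in the same library 1. So were 9 of 12 proximal tubule markers and 8 of 12 thick limb, distal tubule and collecting duct markers. The part of any of these cell types in the Mcl1 value was not tested.

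Bcl2l1 encodes BCL-XL, the survival protein that is also abundant in maturing red cells. It lies on the minus strand of chromosome 2 from 152780668 to 152831728. Wild-type libraries held 3990, 4136 and 5181 normalized counts and labelled-knockout libraries 5674, 4173 and 5817. The 2 highest values were in labelled-knockout libraries 1 and 3, while library 2 lay within the wild-type range. The log2 difference was 0.23 (standard error 0.19, 95% interval -0.21 to 0.67, adjusted p = 0.709 by limma), and it ran from 0.14 with labelled-knockout library 3 left out to 0.38 with library 2 left out.

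Bcl2 is read from the minus strand of chromosome 1, from 106538178 to 106714274. It stood at 234, 224 and 140 normalized counts in wild type and 159, 228 and 239 in labelled knockout. Each group thus had 1 low library, and the ranges lay over each other. On the log2 scale the difference was 0.079 (standard error 0.29, 95% interval -0.58 to 0.74, adjusted p = 0.945 by limma). Its sign turned to -0.16 without wild-type library 3 and to -0.029 without labelled-knockout library 3. Bcl2 shares 558 exon bases with the antisense gene D630008O14Rik, which was not analysed here.

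Bax, the cytosolic pore former that moves to mitochondria on activation, lies on the minus strand of chromosome 7 from 45461697 to 45466898. Its wild-type values were 1095, 1219 and 1196 normalized counts, and its labelled-knockout values 772, 1266 and 1366. Library 1 of the labelled knockout was the lowest of all 6 and libraries 2 and 3 the highest. The log2 difference was -0.086 (standard error 0.22, adjusted p = 0.917 by limma) and turned to 0.17 without labelled-knockout library 1. Bax shares 192 exon bases with Gm45808 on the same strand, which was not analysed here.

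Bak1, the pore former resident in the mitochondrial membrane, lies on the minus strand of chromosome 17 from 27019810 to 27029009. It had 630, 806 and 620 normalized counts in wild type and 391, 586 and 992 in labelled knockout. The labelled-knockout libraries thus included both the lowest and the highest value of all 6. On the log2 scale the difference was -0.16 (standard error 0.31, adjusted p = 0.891 by limma), and it became 0.16 with labelled-knockout library 1 left out and -0.51 with library 3 left out. Exons of Bak1 share bases with Ggnbp1 on the opposite strand, and the use of strand in counting is not given, so reads of the shared part cannot be assigned. Ggnbp1 had means of 294 ± 46.7 and 444 ± 136 normalized counts.

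Bad encodes the BH3-only protein that growth factor signalling keeps inactive by phosphorylation. It was the member with the smallest p, and it lies on the plus strand of chromosome 19 from 6941861 to 6951898. Wild-type libraries held 679, 715 and 677 normalized counts, and labelled-knockout libraries 342, 562 and 537. All 3 labelled-knockout libraries lay below all 3 of wild type, with library 1 lowest. The means were 690 ± 21.6 and 480 ± 120 (SD, n = 3 each), a log2 difference of -0.56 (standard error 0.22, 95% interval -1.05 to -0.07, unadjusted p = 0.0306, adjusted p = 0.455 by limma). It was -0.33 without labelled-knockout library 1. DESeq2 gave -0.52 with an adjusted p of 0.375. In GENCODE M21, Bad shares 524 exon bases with Gpr137 on the opposite strand. That model of Bad has 2558 exon bases, while the counted one has 2007. How much of the shared part was counted is therefore not known, and part of the Bad count may be uncertain in the same way. Gpr137 stood at 988 ± 158 and 959 ± 235 normalized counts, a log2 difference of -0.062 (standard error 0.23, adjusted p = 0.945 by limma).

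Bid, which caspase-8 cleaves to carry death receptor signals to mitochondria, lies on the minus strand of chromosome 6 from 120891930 to 120916853. It had 1216, 910 and 1312 normalized counts in wild type and 1176, 1245 and 1611 in labelled knockout. Labelled-knockout library 3 was highest, and the other 2 lay within the wild-type range. The log2 difference was 0.23 (standard error 0.20, adjusted p = 0.711 by limma), between 0.076 without wild-type library 2 and 0.34 without wild-type library 3. Bid shares 628 exon bases with its family relative Bcl2l13 on the opposite strand, which had a log2 difference of 0.15 (standard error 0.22, adjusted p = 0.841 by limma).

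Bcl2l11 encodes BIM, a BH3-only protein induced by FOXO3 and marked for destruction by ERK. It lies on the plus strand of chromosome 2 from 128126038 to 128162547. Its values were 192, 295 and 268 normalized counts in wild type and 408, 232 and 294 in labelled knockout. Library 1 of the labelled knockout stood above the rest, which shared 1 range. On the log2 scale the difference was 0.29 (standard error 0.28, adjusted p = 0.738 by limma) and ran from 0.077 with that library left out to 0.48 with library 2 left out.

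Bbc3 and Pmaip1 are p53 targets. Bbc3 (PUMA) lies on the plus strand of chromosome 7 from 16308393 to 16318205 and stood at 91.1, 103 and 182 normalized counts in wild type and 186, 127 and 121 in labelled knockout. These rest on 109 to 167 reads per library, and the ranges overlapped. The log2 difference was 0.25 (standard error 0.34, adjusted p = 0.826 by limma), and it was 0.054 with wild-type library 1 left out, 0.055 with labelled-knockout library 1 left out and 0.55 with wild-type library 3 left out. Pmaip1 (NOXA), a selective binder of MCL-1, lies on the plus strand of chromosome 18 from 66458604 to 66465550. It had 425, 330 and 361 normalized counts in wild type and 835, 288 and 335 in labelled knockout. Library 1 held more than any other library, while library 2 was the lowest of the 6. On the log2 scale the difference was 0.22 (standard error 0.38, adjusted p = 0.863 by limma) and turned to -0.25 without library 1, while leaving out library 2 gave 0.51.

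**Figure D3:**
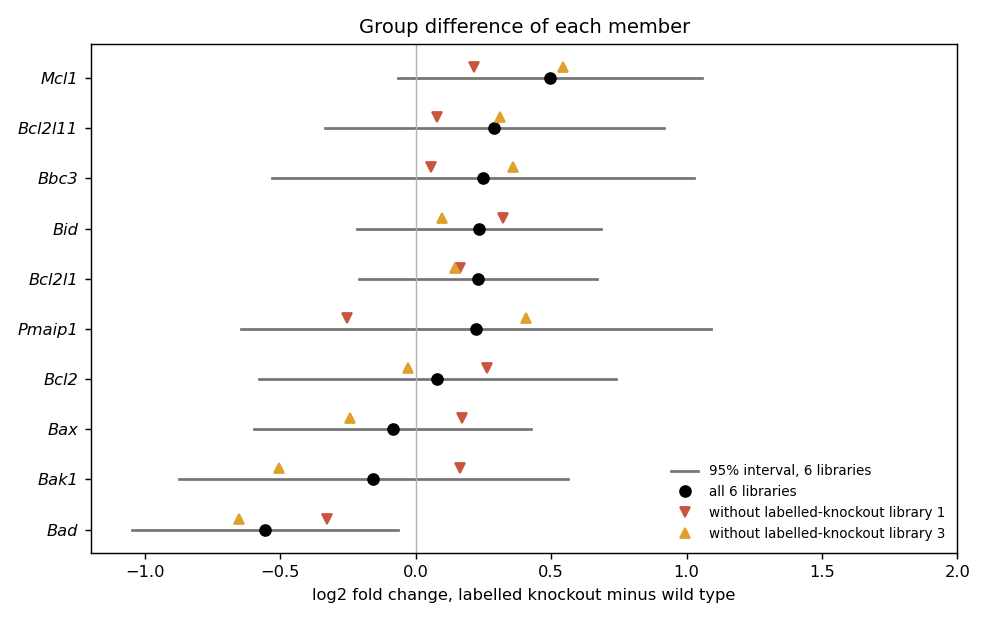
Log2 difference of each member (horizontal axis, labelled knockout minus wild type) with its 95% interval over 6 libraries, and the value without labelled-knockout library 1 (down triangles) or library 3 (up triangles). Only the interval of Bad leaves 0 out. Bax, Bak1 and Pmaip1 change sign without library 1, and Bcl2 changes sign without library 3.

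Single libraries stood apart in several members. Relative to the wild-type mean, labelled-knockout library 1 held 2.08 times as much Mcl1, 2.25 times as much Pmaip1 and 1.62 times as much Bcl2l11. The same library held 0.495 times as much Bad, 0.570 times as much Bak1 and 0.660 times as much Bax. It was the highest library for 4 members and the lowest for 3, so 70% of members had their extreme there, beside 55.5% of all genes tested. Labelled-knockout library 3 was the highest for 5 members, Bcl2, Bcl2l1, Bax, Bak1 and Bid, or 50% beside 16.7% of all genes, and the lowest for none. Labelled-knockout library 2 was the highest for none and the lowest for Pmaip1 alone, and Pmaip1, at -0.36, was the member farthest from the wild-type mean on the log2 scale there. The SD between libraries was larger in labelled knockout for 7 of 10 members, with medians of 0.21 in wild type and 0.40 in labelled knockout, beside 67.5% of all genes and medians of 0.30 and 0.47. Fat cell, neutrophil and erythrocyte markers were highest in labelled-knockout library 1, as were 9 of 12 proximal tubule and 8 of 12 thick limb, distal tubule and collecting duct markers. Endothelial markers were lowest in labelled-knockout library 3. The part of any of these cell types in the differences between libraries was not tested.

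**Figure D4:**
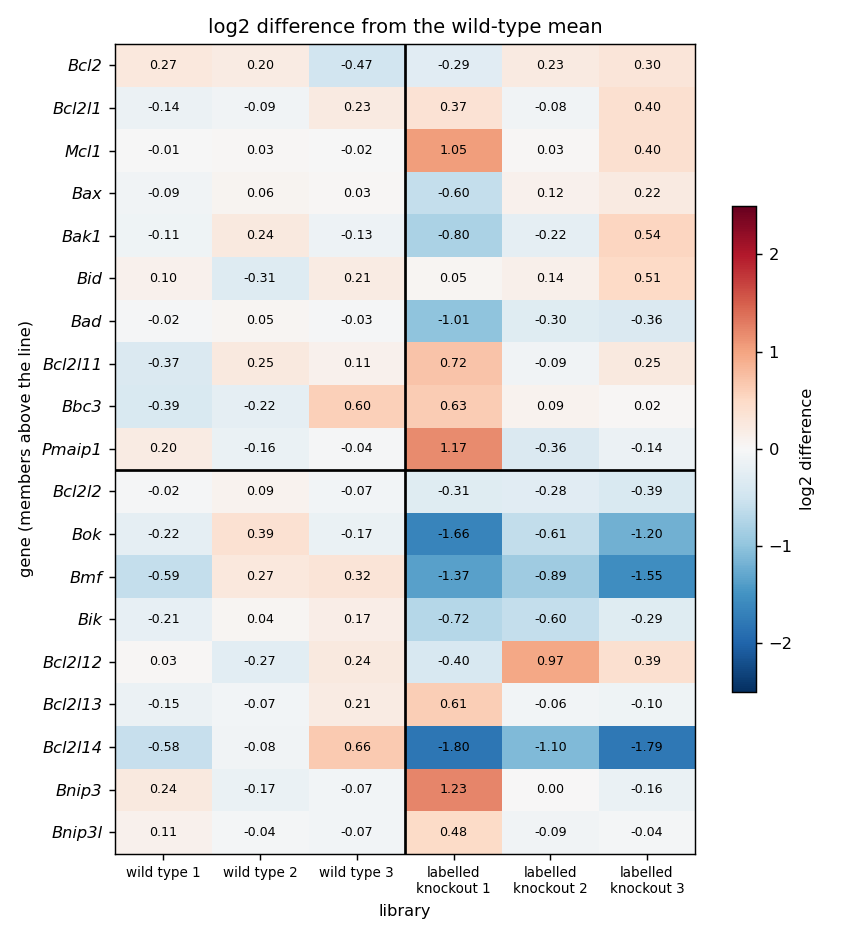
Log2 difference of each library from the wild-type mean for the 10 members (above the line) and the 9 relatives with a mean of at least 50 normalized counts, red for higher and blue for lower. Mcl1, Pmaip1 and the relative Bnip3 are above 1 in labelled-knockout library 1. The member Bad and the relatives Bok, Bmf, Bcl2l14, Bik and Bcl2l2 are negative in every labelled-knockout library.

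The balance of survival transcripts to pore-forming transcripts showed the same split. Summed per 1000 bases, Bcl2, Bcl2l1 and Mcl1 stood at 2131, 2196 and 2373 in wild type and at 3837, 2208 and 2935 in labelled knockout. Bax and Bak1 together stood at 957, 1109 and 1016 and at 652, 1047 and 1279. The ratio of the first sum to the second was 2.23, 1.98 and 2.34 in wild type and 5.88, 2.11 and 2.3 in labelled knockout. For this ratio of 5 members, labelled-knockout library 1 was the one library outside a narrow band. Without it the labelled-knockout mean was 2.20 against 2.18 in wild type. The BAX-like relative Bok is not in the second sum. Per 1000 bases Bok stood at 481, 731 and 496 in wild type and at 177, 366 and 242 in labelled knockout, so the ratio speaks only for the genes in it. The ratio of Bax to Bcl2, often used as a single index, was 27.2, 31.6 and 49.6 in wild type and 28.2, 32.3 and 33.2 in labelled knockout, and the high wild-type value came with the low Bcl2 of library 3. The 5 BH3-only members summed to 898 ± 70.3 in wild type and 908 ± 70.1 in labelled knockout. The mean of Bad was lower in labelled knockout, and those of Pmaip1, Bid, Bcl2l11 and Bbc3 were higher. The higher mean of Pmaip1 was that of labelled-knockout library 1, at 316 per 1000 bases against 109 and 126 in libraries 2 and 3. These sums are descriptions and were not tested.

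**Figure D5:**
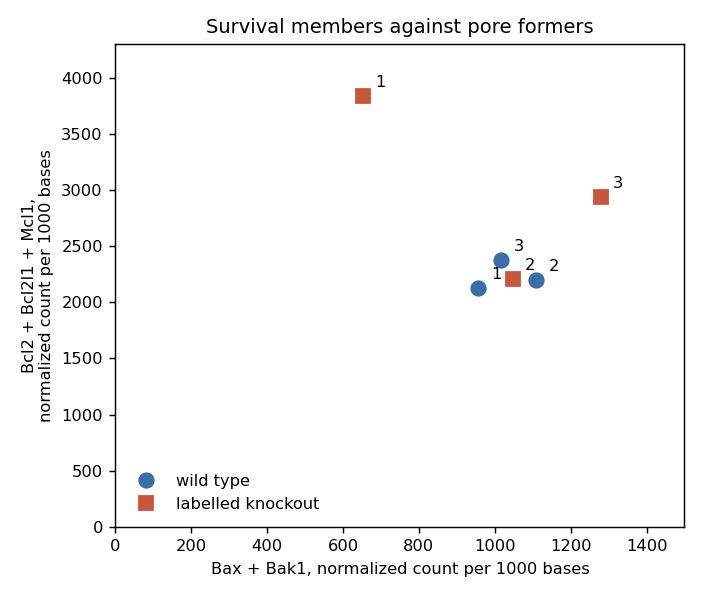
Summed level of Bcl2, Bcl2l1 and Mcl1 (vertical axis) against that of Bax and Bak1 (horizontal axis), both in normalized counts per 1000 bases, for each library. Labelled-knockout library 1 has the highest survival sum, 3837, and the lowest pore-former sum, 652, and library 3 lies high on both.

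Mcl1 and Bad, the 2 genes without overlap, are shown with the bases before their starts because the title of the series names ERK signalling, which is known to act on transcription through ETS factors. Each line gives the 250 bases before a start in the RefSeq promoter table (GRCm38.p6), on the plus strand. Capitals mark the GC box GGGCGG and the ETS core CCGGAA on either strand, which do not overlap each other here.
Mcl1 (chr3:95658471-95658720): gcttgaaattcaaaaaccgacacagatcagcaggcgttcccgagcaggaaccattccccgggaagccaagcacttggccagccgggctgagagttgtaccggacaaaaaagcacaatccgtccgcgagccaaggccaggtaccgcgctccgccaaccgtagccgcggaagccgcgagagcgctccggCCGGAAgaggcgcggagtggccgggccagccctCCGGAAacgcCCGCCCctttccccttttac
Bad (chr19:6941611-6941860): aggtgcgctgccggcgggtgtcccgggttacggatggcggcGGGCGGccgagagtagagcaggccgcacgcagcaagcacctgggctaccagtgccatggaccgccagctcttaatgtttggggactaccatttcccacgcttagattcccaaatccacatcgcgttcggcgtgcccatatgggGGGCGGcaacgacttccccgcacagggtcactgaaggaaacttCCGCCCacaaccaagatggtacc
The Mcl1 window holds the ETS core 2 times and the GC box 1 time, and the Bad window shown the GC box 3 times and no ETS core. Of 32536 distinct windows of this length in the table, 12.1% hold the ETS core and 33.0% the GC box. Over the 15 starts that the table gives for 9 members, 4 windows hold the ETS core and 10 the GC box. This Bad window is that of the first of 2 starts, and the window of the second (chr19:6942312-6942561, not shown) holds the ETS core 1 time and no GC box. A match says only that these letters are there.

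Among relatives of the family outside the 10 members, Bok, Bmf and Bcl2l14 had the smallest p-values, all with lower values in labelled knockout. Of 15 relatives on the list, 0 passed limma or edgeR and 3 passed DESeq2, all lower, where DESeq2 called 1.3% of all genes lower. With limma 3 had an unadjusted p under 0.05, again all lower (6.14% of all genes), and 5 had lower values with no overlap of groups (9.43%). Bok, a BAX-like protein, was at 885, 1345 and 914 normalized counts in wild type and 325, 673 and 446 in labelled knockout. Every labelled-knockout library lay below every wild-type one, for a log2 difference of -1.16 (standard error 0.28, adjusted p = 0.377 by limma, DESeq2 adjusted p = 0.0389). Bmf, a BH3-only protein linked to the cytoskeleton and to loss of attachment, was at 201, 366 and 378 in wild type and 117, 163 and 103 in labelled knockout. It too had no overlap, with a log2 difference of -1.27 (standard error 0.32, adjusted p = 0.377 by limma, DESeq2 adjusted p = 0.0173). Bcl2l14 stood at 56.0, 79.6 and 133 and at 23.4, 38.7 and 23.7, a log2 difference of -1.56 (standard error 0.43, adjusted p = 0.383 by limma, DESeq2 adjusted p = 0.0336). Without labelled-knockout library 1 the log2 differences of these 3 were -0.91, -1.22 and -1.44, the same direction as with it. Bcl2l14 shares 577 exon bases with an antisense gene, so its count is uncertain.

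Bik, another BH3-only gene, had means of 222 ± 29.6 and 153 ± 24.2 (log2 difference -0.54, standard error 0.24, adjusted p = 0.501 by limma). Bcl2l2, the survival protein BCL-W, had means of 859 ± 50.9 and 686 ± 28.0 (-0.32, standard error 0.15, adjusted p = 0.505 by limma). Groups did not overlap for either, and Bcl2l2 was named after its values were seen. Bcl2l2 shares 594 exon bases with Gm20521 on the same strand, which was not analysed here, so part of its count is uncertain. Bnip3, a hypoxia-induced mitophagy receptor and the gene with the highest count of the list, stood at 1469, 1111 and 1185 in wild type and 2918, 1249 and 1114 in labelled knockout, so its high mean was that of library 1. Its log2 difference of 0.36 (standard error 0.35, adjusted p = 0.743 by limma) became -0.079 without that library and 0.62 without library 3, and its count is uncertain because 5 near-identical copies and an overlapping antisense gene are annotated. The Bcl2a1 genes, survival genes of neutrophils and other leukocytes, were named after their values were seen. They are near-identical copies that held 4 to 34 reads each. They summed to 20.5 to 57.4 normalized counts in wild type and 41.2 to 70.2 in labelled knockout. The highest sum was in labelled-knockout library 1, where the summed neutrophil markers were also highest. Wild-type library 1, with the lowest neutrophil sum (659), had a Bcl2a1 sum of 52.7. Wild-type library 3, with a neutrophil sum of 1567, had the lowest Bcl2a1 sum, 20.5, and a relation between these sums was not tested. Bcl2l10, also named after its values were seen, had 0 reads in all 3 wild-type libraries and in labelled-knockout library 3, and 8 and 4 reads in labelled-knockout libraries 1 and 2 (adjusted p = 0.541 by limma).

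Downstream of the mitochondrion, the 18 apoptosome, caspase and inhibitor genes had a median log2 difference of -0.011, none passed limma, edgeR or DESeq2, and 1 had an unadjusted p under 0.05 with limma, where 10.1% of all genes did. Cycs, the cytochrome c that BAX and BAK pores release, had the smallest p of the list. Its wild-type libraries held 6355, 6100 and 4468 normalized counts and its labelled-knockout libraries 3744, 3745 and 3715. The labelled-knockout libraries were almost equal and all below wild type, for a log2 difference of -0.58 (standard error 0.18, adjusted p = 0.391 by limma). It was between -0.58 and -0.57 with any labelled-knockout library left out. With a wild-type library left out it ran from -0.74 (library 3) to -0.48 (library 1). Vdac2, the channel that holds BAK in the membrane and chosen after its values were seen, also had groups without overlap (-0.095, standard error 0.14, adjusted p = 0.842 by limma), while Vdac1 (0.011) and Vdac3 (-0.18) overlapped. Htra2, a mitochondrial protease that antagonises caspase inhibitors, had a log2 difference of 0.25 (standard error 0.20, adjusted p = 0.701 by limma), between 0.14 with labelled-knockout library 3 left out and 0.41 with library 1 left out.

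In the death receptor arm, which feeds into Bid, 0 of 8 genes passed limma, edgeR or DESeq2, 1 had an unadjusted p under 0.05 with limma (10.1% of all genes), and the median log2 difference was 0.20. Tnfrsf1a, the TNF receptor, had 2497, 2614 and 2908 normalized counts in wild type and 3431, 3106 and 4644 in labelled knockout, with no overlap (0.46, standard error 0.19, adjusted p = 0.467 by limma), and 0.29 when labelled-knockout library 3 was left out. Fas, the receptor for FAS ligand, stood at 159, 212 and 126 and at 432, 119 and 289 (0.60, standard error 0.45, adjusted p = 0.673 by limma), which became 0.20 when labelled-knockout library 1 was left out and 1.12 when library 2 was. Cflar, which encodes the caspase-8 inhibitor cFLIP, reached 5839 in labelled-knockout library 1 against 1959 to 3144 elsewhere, and its difference was 0.42 over all libraries, 0.0044 without that one and 0.79 without labelled-knockout library 2. Ripk1, a kinase of the TNF receptor complex, had one of 0.32 (standard error 0.20, adjusted p = 0.596 by limma), between 0.20 with labelled-knockout library 1 left out and 0.52 with library 2 left out.

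Among the 14 regulators of the members, none passed limma, edgeR or DESeq2, 1 had an unadjusted p under 0.05 with limma (10.1% of all genes), and the median log2 difference was 0.089. E2f1, a cell cycle factor that can induce BH3-only genes, stood at 309, 379 and 464 in wild type and 31.2, 247 and 171 in labelled knockout, with no overlap. Its log2 difference was -1.77 (standard error 0.72, adjusted p = 0.477 by limma) and -0.88 without library 1. The ubiquitin ligase Huwe1, which marks MCL-1 for destruction, had means of 4402 ± 193 and 5655 ± 781 with no overlap (0.35, standard error 0.16, adjusted p = 0.515 by limma). Usp9x, which removes ubiquitin from MCL-1, had a log2 difference of 0.27 (standard error 0.21), 0.069 without library 1 and 0.46 without library 2. Mdm2, the inhibitor and target of p53, reached 2466 in labelled-knockout library 1 against 1047 to 1275 elsewhere. Its difference was 0.32 over all libraries, -0.050 without labelled-knockout library 1 and 0.57 without labelled-knockout library 2. Ywhaz, a 14-3-3 protein that holds phosphorylated BAD and the gene with the highest count of the list, was at -0.0084 (standard error 0.18).

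Of 12 p53 targets outside the family, 0 passed limma, edgeR or DESeq2 and 1 had an unadjusted p under 0.05 with limma (10.1% of all genes), with a median log2 difference of 0.055. Gtse1 (-1.31, standard error 0.55), Btg2 (-0.65, standard error 0.30) and Perp (-0.28, standard error 0.16) had lower and the stress gene Sesn2 (0.40, standard error 0.22) higher means in labelled knockout, and Ccng1, with the highest count, stood at 3661 ± 118 and 3873 ± 241 normalized counts. Groups did not overlap for Perp. Gtse1 is expressed in dividing cells, and leaving out labelled-knockout library 1 gave it -0.66. With each library left out in turn, Btg2 ran from -0.997 (without labelled-knockout library 1) to -0.43 (library 3), and Sesn2 from 0.26 (without wild-type library 1) to 0.62 (wild-type library 3). Over the 65 genes of the 5 pathway lists, each counted once, 7 had an unadjusted p under 0.05 with limma, 1 higher and 6 lower, and groups did not overlap for 12, 2 higher and 10 lower. Over all genes tested the shares were 10.1% (3.94% higher and 6.14% lower) and 17.7% (8.27% higher and 9.43% lower), so both totals were near the background. By direction, more of the 65 genes were lower and fewer higher than those shares would give, which was not tested.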

How the data were processed

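Kidney RNA of 6 mouse libraries was compared, 3 of genotype WT and 3 labelled CXCR2 knockout, grouped by the genotype in the labels. Each library's deposited file gives the authors' normalized signal for every gene. Within a file 100% of the values were whole multiples of 1 step (tolerance 0.001 reads), so the values are read counts over a size factor. The genome build was mm10, per the submitters' processing notes. The sources used here do not name the aligner, counting program, strand setting or annotation release.

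Gene lengths and gene coordinates were read from the deposited files. In R 4.3.3, limma 3.58.1 (trend and robust) was run on log2(normalized count + 1) for the 21721 genes with a mean of at least 1, with Benjamini-Hochberg adjustment over all of them. The quasi-likelihood test of edgeR 4.0.16 and the Wald test of DESeq2 1.42.0 on recovered reads were alternatives, with TMM scaling, pseudocounts of 0.1 and 5, other filters, a replicate block and each library left out. With 3 against 3, an exact permutation test of a single value cannot go below 0.1 and was not used. The scripts were tested on simulated data, with changes put into genes whose mean was at least 50. There limma recovered 30% of 2-fold and 86% of 4-fold changes, with 7 false calls among 21546 genes. A member without a call is thus not shown to be unchanged. Differences on this scale understate those of low genes.

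The members, the pathway lists and the marker lists were chosen with earlier results of these data known. All members were named, then up to 4 genes per pathway list by smallest p and its most abundant gene, except where stated. Exon overlaps and coding stretches came from GENCODE M21, near-identical copies from a BLAST search of its transcripts at 90% identity over 100 bases, and promoters from the RefSeq table, where 9 members matched by symbol. Pmaip1 has no sequence shown. A gene that the naming rule selects is not reported here.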

Additional observations from a re-analysis of the deposited data

How the results depend on the processing

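No member passed the threshold under any of the 14 alternatives, and the direction held in 135 of 140 member and setting pairs. The 5 that reversed each left out 1 library: Bcl2 stood at -0.16 when wild-type library 3 was omitted and at -0.029 when labelled-knockout library 3 was, and, without labelled-knockout library 1, Bax at 0.17, Bak1 at 0.16 and Pmaip1 at -0.25, with the cause not tested. With 1 library left out, Bcl2 ran from -0.16 to 0.26, Bax from -0.24 to 0.17, Bak1 from -0.51 to 0.16 and Pmaip1 from -0.25 to 0.51. The lowest adjusted p of Bad over the alternatives was 0.338 and that of Mcl1 0.391. Over all genes, 1 passed with limma, 316 with DESeq2, 4 after TMM scaling, 5 with a pseudocount of 5, 5 without the filter and 16 with the replicate block, and from 1 to 6 with 1 library left out (6 without labelled-knockout library 1, 3 without library 3). The cause of these changes was not tested. Whether replicate numbers pair the samples is not stated. Deviations of same-numbered libraries correlated at 0.067, -0.15 and 0.12 across the 12841 genes whose mean reached 50. Those of differently numbered libraries ran from -0.23 to 0.20, so few values of either kind cannot decide it. The block changed no member's call. Of the members, Bbc3 rested on the fewest reads, 109 to 167 per library.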
